A study of Mus musculus with 6 samples.

Results

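Immature beta cells, sorted from adult mouse islets as positive for an Ins1-driven nuclear mCherry and negative for a Ucn3-driven eGFP, were compared with mature beta cells, sorted as positive for both reporters. The comparison covers 12981 of the 46959 genes in the expression table, those with at least 1 RPKM (reads scaled to gene length and library size) in at least 2 of the 4 libraries of these populations. Each population has 2 libraries, called 1 and 2 below. All mice were bitransgenic offspring of a cross of Ins1-H2b-mCherry with Ucn3-eGFP, and each library was made from islets pooled over 10 to 12 adult mice, so no library shows the spread between single animals. The islets of all groups were cultured overnight in 5.5 mM glucose and 10% serum and dissociated with trypsin before sorting. Another population from the same islets, negative for both reporters and called double negative, also with 2 libraries, enters the estimate of spread and serves as the measured background of non-beta islet cells. The labels name no treatment.

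Beta cells make insulin as a precursor, cleave it in secretory granules with the convertases encoded by Pcsk1 and Pcsk2, and release it when glucose metabolism closes potassium channels and lets calcium enter. The peptide urocortin 3, encoded by Ucn3, appears late in beta cell maturation, and the transcription factor MAFA with it. Mature beta cells also hold low a set of genes that most other tissues express, among them those for lactate dehydrogenase A and the high-affinity hexokinases.

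The promoters of the genes that define the sort are shown, with that of the glucagon gene as the alpha cell counterpart, because the reporters carry the names of the first pair. Which fragments drive the reporters is not given in the sources used here. Each is the 250 bases before the RefSeq start site in GRCm38.p6, written along the gene's strand. Capitals mark TAAT (the core bound by homeodomain factors), CANNTG (the E-box core) and GCTGA (part of the element bound by MAF factors), searched on both strands.
Ins1, chr19:52264047-52264296, plus strand: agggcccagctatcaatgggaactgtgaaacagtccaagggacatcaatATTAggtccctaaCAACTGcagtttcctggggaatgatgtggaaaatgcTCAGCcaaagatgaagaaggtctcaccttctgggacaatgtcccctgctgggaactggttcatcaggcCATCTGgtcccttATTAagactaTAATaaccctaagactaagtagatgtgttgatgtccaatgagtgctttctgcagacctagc
Ucn3, chr13:3945350-3945599, minus strand: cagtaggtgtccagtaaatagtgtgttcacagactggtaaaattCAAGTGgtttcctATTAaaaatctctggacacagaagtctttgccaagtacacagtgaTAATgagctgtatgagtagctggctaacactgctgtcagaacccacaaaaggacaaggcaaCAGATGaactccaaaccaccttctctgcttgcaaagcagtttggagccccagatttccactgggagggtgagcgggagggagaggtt
Gcg, chr2:62483654-62483903, minus strand: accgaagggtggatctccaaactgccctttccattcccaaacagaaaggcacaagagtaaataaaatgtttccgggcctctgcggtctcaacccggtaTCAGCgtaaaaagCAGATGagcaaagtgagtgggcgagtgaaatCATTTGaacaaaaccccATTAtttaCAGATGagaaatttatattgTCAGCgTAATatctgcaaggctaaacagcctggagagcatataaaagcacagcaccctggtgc
The TAAT core was found 3 times at Ins1, 2 times at Ucn3 and 2 times at Gcg. CANNTG matched 2, 2 and 3 times, and GCTGA 1, 0 and 2 times. No marked match overlaps another. Among 27025 RefSeq promoters cut to the same length, 55.3% hold TAAT, 66% CANNTG and 46.2% GCTGA, so these matches are a description of the letters and not of binding.

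Before any comparison, the immature libraries stood apart in depth. Their RPKM steps correspond to 2393841 and 3448926 reads, while mature libraries had 23718091 and 26824380 reads and double negative libraries 22063880 and 22731664, so that 1 read in a gene of 1 kb was worth 0.418 and 0.29 RPKM in immature cells and from 0.0373 to 0.0453 RPKM elsewhere. The SD of the difference between replicates on the log2(RPKM + 1) scale came to 0.36 for immature cells, 0.127 for mature cells and 0.207 for double negative cells. In immature cells 265 genes (2.04%) differed by at least 1 between the replicates, against 31 (0.239%) in mature cells. By the sex labels, replicate 1 is male and replicate 2 female, whereas the design text speaks of females. Xist, the RNA that silences one X chromosome in females, was present in all 6 libraries, and in those labelled male it stood at 129, 36.5 and 38.9 RPKM in immature, mature and double negative cells. The Y-linked gene Ddx3y stood at 0.161, 0.00811 and 0 RPKM in the libraries labelled male and at 1.23, 0.0645 and 0.0423 RPKM in those labelled female, in the same order. Xist in the libraries labelled female stood at 108, 21.4 and 47.6 RPKM, again in this order. Ddx3y was thus higher in the library labelled female of each pair, though far under 1 RPKM in mature and double negative cells. The Xist values go against the male label, and Ddx3y in immature replicate 2 goes against the female label. Replicate numbers are used here only as names.

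The genes behind the sort checked the labels. Ins1 (ENSMUSG00000035804.5 on the plus strand of chromosome 19, GRCm38 bases 52264297 to 52265476) was at 11992 and 13389 RPKM in the immature pair of libraries, 46606 and 49447 RPKM in the mature pair and 336 and 735 RPKM in the double negative pair. Ucn3 (ENSMUSG00000044988.7 on the minus strand of chromosome 13, GRCm38 bases 3940688 to 3945349) was at 20.3 and 31.8 RPKM in the immature pair, 93.9 and 97.7 RPKM in the mature pair and 1.07 and 2.83 RPKM in the double negative pair. For both genes the immature libraries lay below both mature and above both double negative libraries. Ins1 fell by 1.92 on the log2 scale (SE 0.47, limma adjusted p = 0.00994) and Ucn3 fell by 1.87 (SE 0.37, adjusted p = 0.00415). Since the sort reads reporters of these genes, these differences are a check and no independent finding. Without immature replicate 1 the adjusted p was 0.1 for Ins1 and 0.0694 for Ucn3, and without immature replicate 2 it was 0.0756 for Ins1. With no filter on low values it was 0.139 for Ins1 and 0.0593 for Ucn3, while the size of each fall stayed between 1.84 and 2.37 for Ins1 and between 1.56 and 2.30 for Ucn3 over 16 alternatives.

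Hormone transcripts took up different shares of the libraries. Ins2, the second mouse insulin gene, made up 12% and 12.4% of the summed RPKM of immature cells and 33.2% and 34.8% of that of mature cells. Gcg, the glucagon gene of alpha cells, made up 7.47% and 4.83% in immature, 0.112% and 0.147% in mature, and 40.3% and 38.9% in double negative cells. In bulk RNA, fewer cells of a type and less RNA per cell cannot be told apart, here and in all that follows. Digestive enzyme genes of acinar cells, on a list of 19, held 2.95% and 8.63% in the immature and at most 0.634% in each of the other 4 libraries. RPKM is relative to each library's total, so a library with less insulin RNA shows, other things equal, higher values for all other genes. The median log2 difference between immature and mature cells over all genes tested was 0.28, and it became -0.09 after median-ratio rescaling, -0.17 after quantile normalization and 0.07 after scaling to equal sums without 7 hormone genes.

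**Figure D1:**
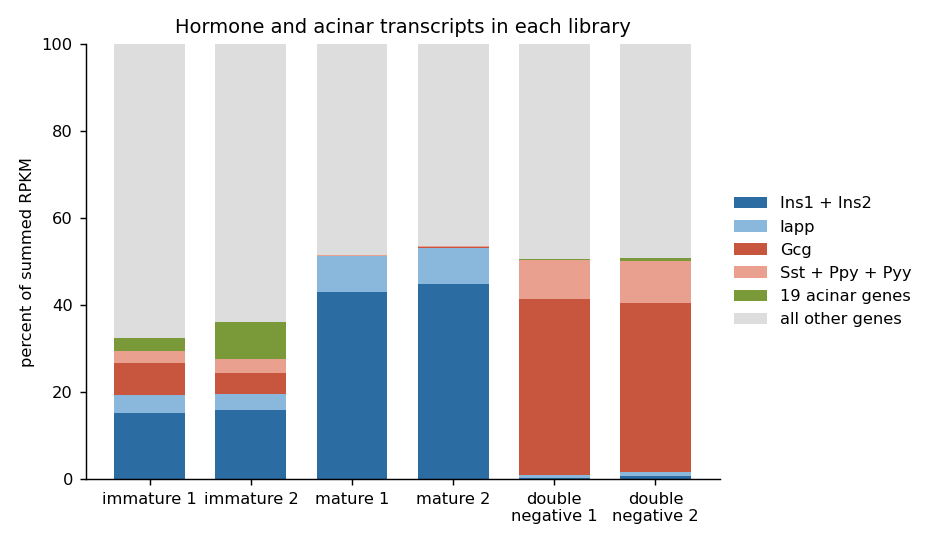
Percent of summed RPKM (y axis) held by insulin, Iapp, glucagon, other hormone genes and 19 acinar genes in each of the 6 libraries (x axis). Insulin takes the largest coloured share of the mature libraries, glucagon that of the double negative ones, and the immature libraries hold both, with an acinar share that is larger in library 2.

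Against this background, 7995 genes (61.6% of those tested) passed the test at an adjusted p under 0.05. Of these, 6131 (47.2% of those tested) were higher in immature cells and 1864 (14.4%) were lower. On simulated data at these depths the test made more false calls than its threshold states, nearly all under 10 RPKM. Genes with a mean under 2 RPKM gave 1340 of the higher and 123 of the lower calls, and those from 2 to 10 RPKM gave 3059 and 458. A difference of at least 1 on the log2 scale, with the same p, was met by 2523 genes (19.4%) that were higher and 285 (2.2%) that were lower. The split of calls depends on the scale: 3783 were higher and 4667 lower after median-ratio rescaling, 2751 and 4781 after quantile normalization, and 4110 and 2914 with hormone genes left out of the sum. Of the genes tested, 1979 reached 1 RPKM in both immature and in neither mature library, and 105 the reverse. These genes passed the filter through the group where they are high, so their direction is given by the choice. Among the 10411 genes with at least 1 RPKM in all 4 libraries, 4073 were higher and 1719 lower.

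The balance of calls differed with the level of the gene. Among genes with at least 1 RPKM in all 4 libraries, those with a mean under 2 RPKM were higher in 25.5% and lower in 2.76% of 471 cases, those from 2 to 10 RPKM in 46% and 8.22% of 5145, and those of 50 RPKM or more in 22.3% and 49.8% of 806. For the last class the lower calls outnumbered the higher ones under every scaling tried, with 49.6% to 76.9% lower and 12.5% to 21% higher under the 3 others. Below 2 RPKM the order depends on the scaling: quantile normalization gave 0% higher and 74.1% lower, and median-ratio rescaling 7.22% and 12.5%. From 2 to 10 RPKM it does too: 23% higher and 28.9% lower after median-ratio rescaling, 12.5% and 39.8% after quantile normalization. With hormone genes left out of the sum the shares there were 26.5% and 14.1%. Genes from 10 to 50 RPKM were higher in 35.3% and lower in 22.1% of 3989 cases. Under the 3 other scalings 14.2% to 20% of them were higher and 37.2% to 57.6% lower. Over all genes tested, those under 2 RPKM rested on a median of 16 and 22 reads in the immature libraries, and those of 50 RPKM or more on 603.5 and 857.5 reads. Shares over all genes that are set beside gene lists below are not matched for level.

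**Figure D2:**
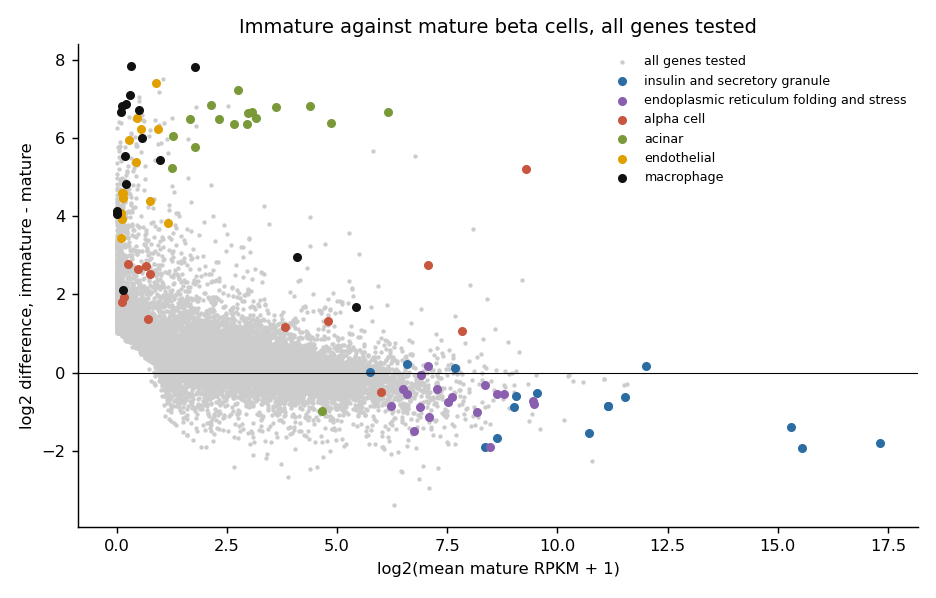
Log2 difference between immature and mature cells (y axis) against the log2 mean level in mature cells (x axis) for the 12981 genes tested, with 6 gene lists in colour. The granule and endoplasmic reticulum genes lie at the right and mostly below 0, and the acinar, endothelial and macrophage genes mostly at the left and above 0.

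Genes of insulin and its granule were mostly lower in immature cells: 12 of the 16 tested fell, 1 rose and 3 missed the threshold, with a median of -0.85 beside 0.28 over all genes. Of all genes tested 14.4% were lower and 47.2% higher. Among genes with at least 1 RPKM in all 4 libraries and a mean of 50 RPKM or more, the shares were 49.8% and 22.3%. Slc30a8, the granule zinc transporter gene, was the rise, and it turned sign under another scaling. Without immature replicate 1, 9 of the 16 fell, and with no filter on low values 7 fell, with 0 rising in both. Ins2 measured 44932 and 49012 RPKM in immature cells, with 158137 and 170715 RPKM in mature cells, and it fell by 1.81 (SE 0.49, adjusted p = 0.016). The fall of Ins2 did not pass without immature replicate 1 (adjusted p = 0.149), without replicate 2 (0.115) or with no filter (0.301), and quantile normalization sets it to 0 because Ins2 has the highest value in each library of both populations. Iapp, which encodes the amyloid peptide released with insulin, measured 15519 and 15030.1 RPKM against 39604 and 40956 RPKM and fell by 1.40 (adjusted p = 0.0012), with 0.173 under no filter and 0 difference after quantile normalization. For each of these genes the groups did not overlap. Transcripts of other cells moved with these falls: summed RPKM of the 15 alpha genes was 29790.5 and 20369.5 in immature and 983 and 1205 in mature cells, and the acinar, endothelial and macrophage sums are given with those lists. Their part in the falls of beta cell genes, here and in the next paragraphs, was not tested.

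Both convertase genes fell. Pcsk1, which makes the first cut in proinsulin, stood at 117 and 128 RPKM in immature cells, with 395 and 393 RPKM in mature cells, a fall of 1.68 (SE 0.34, adjusted p = 0.00448, or 0.0578 without immature replicate 1 and 0.0676 with no filter). Pcsk2 had 366 and 335 RPKM in immature cells and 528 and 540.4 RPKM in mature cells, a fall of 0.61 (adjusted p = 8.15e-04), and its double negative level was the highest of the 3, at 658 and 617 RPKM. The carboxypeptidase gene Cpe, whose product trims the cut ends, fell by 0.86, from 2268 and 2260.1 to 1284 and 1219 RPKM. Vgf, a granule precursor, fell by 1.91 and Scg3, a granin, by 1.54. Chgb, chromogranin B, fell by 0.62 (adjusted p = 0.00231, or 0.0542 with no filter). The genes that missed the threshold included Ptprn2, a granule membrane protein gene, at 53.6 and 53.7 RPKM in immature cells, with 51.3 and 54.1 RPKM in mature cells (adjusted p = 0.782), and Pcsk1n, which encodes an inhibitor of the first convertase, had an adjusted p of 0.726.

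Transcription factors of beta and endocrine cells went both ways: of 19 tested, 6 rose, 8 fell and 5 did not pass, beside 47.2% and 14.4% of all genes higher and lower, with a median of -0.11, and the rise of Esrrg turned sign under another scaling. With either immature library left out, 5 rose and 5 fell. Mafa, an activator of insulin transcription (ENSMUSG00000047591.5 on the minus strand of chromosome 15, GRCm38 bases 75745490 to 75748228), was measured at 13.2 and 37.9 RPKM in immature cells, 123 and 122 RPKM in mature cells and 1.01 and 1.96 RPKM in double negative cells. It fell by 2.40 (SE 0.37, adjusted p = 0.00123), and the immature libraries differed from each other by nearly as much as library 2 differed from the mature ones.

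Pdx1 and Nkx6-1, which maintain beta cell identity, fell by 0.77 and 0.67 (adjusted p = 0.00137 and 0.00152). Pdx1 stood at 34.3 and 42.6 against 63.7 and 67.7 RPKM and Nkx6-1 at 39 and 51.5 against 72.5 and 71.3 RPKM, without overlap. Insm1, a zinc finger factor of endocrine cells, fell by 1.18, from 101 and 101 to 42.3 and 46.2 RPKM. Rfx6, needed for endocrine differentiation, rose by 1.69, from 8.7 and 8.17 to 30.7 and 28.2 RPKM, and its immature level lay above the double negative level of 21.3 and 23.1 RPKM (difference 0.39, adjusted p = 0.0168). Myt1 rose by 0.81. Isl1 rose by 0.45, but by 0.02 after median-ratio rescaling. Neurod1 and Pax6, shared by all islet endocrine cells, had adjusted p of 0.186 and 0.88, Neurod1 with 58.5 and 56.4 against 62.2 and 61.6 RPKM and Pax6 with 35.5 and 31.1 against 33.8 and 31.9 RPKM.

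**Figure D3:**
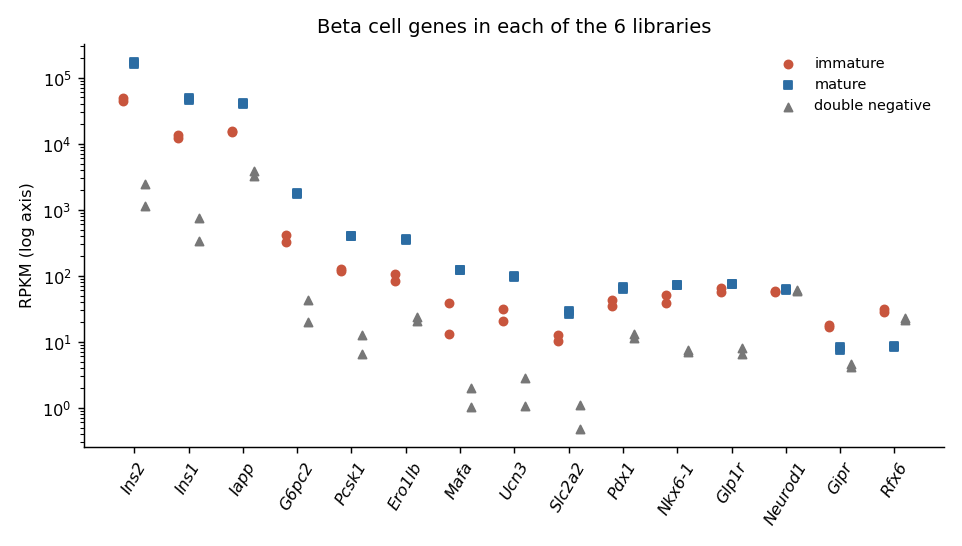
RPKM on a log axis (y) for 15 beta cell genes (x) in each of the 6 libraries, with 2 points per population. Immature levels lie between those of mature and double negative cells for Ins1, Ins2, Ucn3 and Mafa, and above those of mature cells for Rfx6 and Gipr.

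Genes of glucose sensing and excitation were tested for 14 members, of which 8 fell, 3 rose and 3 did not pass (14.4% of all genes fell), with a median of -0.36, and the call of Cacnb2, a calcium channel subunit gene, turned sign under another scaling. Without immature replicate 1, 4 fell and 2 rose. G6pc2, the islet glucose-6-phosphatase, which reverses the first step of glucose use, fell most, by 2.26 (SE 0.43, adjusted p = 0.00311), from 1747 and 1759.7 to 324 and 408 RPKM. Its adjusted p without immature replicate 1 was 0.0501, and 0.0539 with no filter. Slc2a2, the beta cell glucose transporter GLUT2, fell by 1.21, from 26.6 and 28.7 to 10.2 and 12.6 RPKM (adjusted p = 0.00356, or 0.0579 without immature replicate 1).

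The calcium pump genes of the endoplasmic reticulum fell together, Atp2a2 by 1.31 and Atp2a3 by 1.36, from 357 and 352 to 138 and 148 RPKM and from 197 and 202 to 74.3 and 80.4 RPKM. Pcx, pyruvate carboxylase, fell by 0.77. Abcc8, the sulfonylurea receptor subunit of the potassium channel, rose by 0.45, which became 0.01 after median-ratio rescaling, and Glud1, glutamate dehydrogenase, rose by 0.58, or 0.15 after that rescaling (adjusted p = 0.104). The calcium channel gene Cacna1d had 13.7 and 13.6 RPKM in immature cells, with 13.7 and 13.4 RPKM in mature cells (adjusted p = 0.925).

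Receptors for hormones and nutrients split: 6 of the 14 tested fell, 5 rose and 3 missed the threshold (14.4% of all genes fell and 47.2% rose), with a median of -0.17, and Insr turned sign under another scaling. Adra2a, the adrenergic receptor that restrains insulin release, fell by 1.63, from 63.8 and 63.4 to 17.5 and 22.7 RPKM. Igf1r fell by 1.45, from 138 and 142 to 48.8 and 52.4 RPKM, the prolactin receptor gene Prlr by 1.23 and the fatty acid receptor gene Ffar1 from 46.8 and 47.5 to 21.8 and 24.4 RPKM. Of the incretin receptors, Gipr, for GIP, rose by 1.06 (SE 0.12, adjusted p = 2.71e-04), from 8.19 and 7.43 to 16.9 and 17.7 RPKM, and Glp1r, for GLP-1, measured 55.6 and 66 RPKM in immature cells, with 73.7 and 76 RPKM in mature cells (difference -0.30, adjusted p = 0.0801). Gipr in immature cells also lay above the double negative level of 4.06 and 4.52 RPKM (difference 1.79, adjusted p = 6.02e-05). Gpr119, a lipid receptor, rose by 1.62, to 8.28 and 4.86 RPKM, but its double negative level was 22.8 and 23.9 RPKM. Casr, the calcium-sensing receptor, rose by 0.76, and it stood at 17.6 and 18.2 RPKM in double negative cells.

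Of 14 genes of exocytosis, 9 fell, 3 rose and 2 did not pass, where 14.4% of all genes fell and 47.2% rose, with a median of -0.33, and the call of Rph3al turned sign under another scaling. Without immature replicate 1, 4 fell and 2 rose. Sytl4, which encodes the granule protein granuphilin, fell by 2.08, from 74.1 and 73.7 to 16.5 and 16.9 RPKM. Syt4, a synaptotagmin that rises as beta cells mature, fell by 1.82, from 209 and 202 to 57 and 58 RPKM, and Syt13 by 0.87. Stx1a, the syntaxin of the fusion complex, rose by 1.24, to 11.1 and 11.7 from 4.27 and 4.29 RPKM, while its partner Snap25 measured 32 and 31.3 RPKM in immature cells, with 34 and 32.8 RPKM in mature cells (adjusted p = 0.483). Cplx2, complexin 2, rose by 0.52, or by 0.09 after median-ratio rescaling.

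The folding machinery of the endoplasmic reticulum was lower nearly throughout: of 18 genes tested, 16 fell, 0 rose and 2 did not pass, with a median of -0.68. Of all genes 14.4% were lower. Among genes with at least 1 RPKM in all 4 libraries and a mean of 50 RPKM or more, 49.8% were lower. Ero1lb, the oxidase that serves proinsulin folding (ENSMUSG00000057069.7 on the plus strand of chromosome 13, GRCm38 bases 12565874 to 12611396), fell by 1.89 (SE 0.12, adjusted p = 1.87e-05), from 357 and 347 to 84.1 and 105 RPKM. Trib3, induced by stress, fell by 1.49, Creld2 by 1.12 and the chaperone partner gene Dnajb9 by 1.02. Hspa5, the main chaperone BiP, fell by 0.74, from 708 and 696 to 438 and 403 RPKM, and Atf4, the stress transcription factor, by 0.54. The lectin chaperone gene Canx and the disulfide isomerase gene Pdia4 did not pass (adjusted p = 0.118 and 0.519). Hspa5 measured 403 and 410.2 RPKM in double negative cells.

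Nuclear genes of the respiratory chain fell in 11 of 21 cases and rose in 0, beside 14.4% and 47.2% of all genes, with a median of -0.24. Those shares are not matched for level, and the 21 genes summed to 1425 and 1397 RPKM in mature cells. Of genes with at least 1 RPKM in all 4 libraries, 22.1% were lower from 10 to 50 RPKM and 49.8% at 50 RPKM or more. The falls numbered 6 with either immature library left out and 21 after median-ratio rescaling. Cox5a fell by 0.47 (adjusted p = 0.00816, or 0.104 without immature replicate 2), while Cox4i1 and Ndufs1 had adjusted p of 0.52 and 0.82. No member differed by 1 or more.

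Of 15 cholesterol genes tested, 7 were higher, 4 lower and 4 did not pass, a share of rises close to the 47.2% of all genes, with a median of 0.30, and the calls that turned sign under another scaling included that of Dhcr7. After median-ratio rescaling 4 were higher and 7 lower. Sqle, squalene epoxidase, fell by 1.44, from 81.4 and 78.5 to 27 and 30.8 RPKM, and Lss, the next enzyme, by 0.82. Hmgcs1, at the start of the pathway, rose by 0.99. Insig1, which holds the pathway's regulator in check, rose by 0.73.

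Of the 20 genes that beta cells keep low, 13 reached 1 RPKM in the immature libraries alone, so that the filter fixed their direction. The 6 with at least 1 RPKM in all 4 libraries were higher in immature cells, as were 4073 of the 10411 genes at that level. Ldha, lactate dehydrogenase A, rose by 1.60 (SE 0.07, adjusted p = 2.50e-06), from 16.9 and 17.2 to 52.7 and 54.9 RPKM. Hk2, a high-affinity hexokinase, rose by 2.55, from 0.494 and 0.468 to 8.54 and 6.9 RPKM, and Cat, catalase, by 2.71, from 3.24 and 2.77 to 24.1 and 26.4 RPKM. Oat, ornithine aminotransferase, rose by 3.05 and Igfbp4 by 3.45, and both were higher still in double negative cells, Oat at 43.2 and 39.7 RPKM and Igfbp4 at 24.6 and 20.7 RPKM. Of the 20 genes, 16 lay above double negative cells too, where 27.3% of all genes were above both other populations. These shares are not alike, since the filter fixed the direction against mature cells for 13 of the 20. Among the 16 were Ldha, at 19.5 and 20 RPKM there, and Tgm2, a transglutaminase gene, at 28.9 and 28.7 RPKM in immature cells and 3.99 and 4.34 RPKM in double negative cells. Markers of other cells moved with these rises: the summed level of 16 macrophage genes came to 2257 and 2348 RPKM in immature cells and to 63.6 and 64.4 RPKM in mature cells, and that of 14 endothelial genes to 1027 and 975 RPKM and to 6.39 and 4.97 RPKM. Their part in these rises was not tested.

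Genes of islet progenitors and of dedifferentiated beta cells were tested for 10 of 15 listed, and 2 of these reached 1 RPKM in immature cells alone. Of the 7 with at least 1 RPKM in all 4 libraries 5 rose and 2 fell, beside 4073 and 1719 of the 10411 genes at that level. The calls of Aldh1a3 and Gast turned sign under another scaling. Markers of other cells, given with their lists, moved with these rises, and their part was not tested. Sox9, of the progenitor and duct, measured 4.34 and 3.58 RPKM against 0.0306 and 0.0541 RPKM. Hes1, a Notch target, rose by 2.41, from 3.73 and 4.36 to 25.4 and 26.2 RPKM, and Sox4 by 2.18. Fev, a factor of serotonin neurons and endocrine precursors, rose by 2.52 but stood highest in double negative cells, at 20.5 and 19.2 RPKM, as did Rbp4, a gene also used as a delta cell marker. Npy, neuropeptide Y, went the other way and fell by 1.92, from 106 and 112 to 21.4 and 36.9 RPKM. Neurog3, the trigger of endocrine differentiation, did not reach the filter: it measured 0.543 and 1.69 RPKM in immature cells, 0.11 and 0.121 RPKM in mature cells, and 4.56 and 4.77 RPKM in double negative cells.

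**Figure D4:**
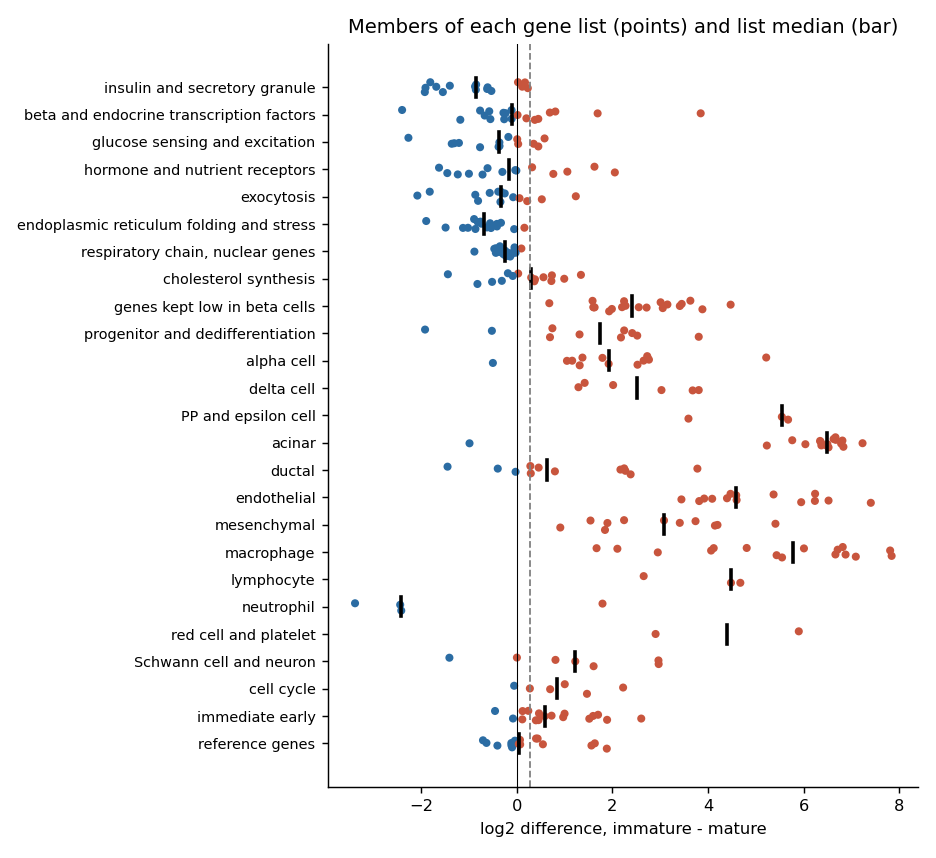
Log2 difference between immature and mature cells (x axis) for the tested members of 25 gene lists (rows), with red points above and blue points below 0, a bar at each list's median and a dashed line at the median of all genes, 0.28. Granule and endoplasmic reticulum lists lie mostly below 0, and the lists of acinar, endothelial and macrophage genes mostly above 4, the last 2 made up largely of genes that reached 1 RPKM in immature cells alone.

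By a rule of size, 12 falls were named among genes of at least 5 RPKM in mature cells, Mafa and G6pc2 among them. S100a9, a calcium-binding alarmin, fell by 3.38 (SE 0.25, adjusted p = 3.47e-05), from 76.4 and 79.4 to 4.8 and 8.89 RPKM, and its partner S100a8 was at 0 and 0.418 RPKM in immature cells, with 5.22 and 5.48 RPKM in mature cells. S100a8 reached 1 RPKM in mature cells alone, so the filter fixed its direction. Lcn2, lipocalin 2, fell by 2.44, from 158 and 153 to 30.1 and 25.9 RPKM. These 3 are the falls on the neutrophil list, of which 4 of 10 genes were tested and Csf3r, at 2.08 and 2.89 RPKM in immature cells and listed at 0 in the mature, reached 1 RPKM in immature cells alone. The neutrophil genes Elane, Mpo, Ngp, Cxcr2 and Retnlg were listed at 0 in every library. Nptx2, a neuronal pentraxin, fell by 2.94, from 135 and 134 to 18.1 and 15.2 RPKM, and it was at 15.8 and 17.8 RPKM in double negative cells. Ttyh1, a chloride channel gene, fell by 2.71, from 116 and 116 to 16.9 and 16.9 RPKM, and its exons share bases with another gene. Tmem215 fell by 2.51, from 86.8 and 85.8 to 13.4 and 15.3 RPKM, and it was at 0.736 and 1.44 RPKM in double negative cells.

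Further falls were smaller in level. Angptl7, a secreted angiopoietin-like protein gene, fell by 2.47, from 19.3 and 20.9 to 2.9 and 2.69 RPKM. Dusp14, a phosphatase gene, fell by 2.40, from 22.1 and 22.5 to 2.36 and 4.77 RPKM. Ovol2, a zinc finger factor that holds epithelial identity, fell by 2.34, from 12.6 and 12 to 0.989 and 2.47 RPKM. Tac1, which encodes substance P, fell by 2.19, from 9.13 and 10 to 0.983 and 1.71 RPKM. Every one of these had both immature libraries below both mature libraries, as the rule requires.

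Transcripts of other islet endocrine cells rose in immature cells. Of 13 alpha cell genes tested, 7 reached 1 RPKM in immature cells alone. Of the 6 with at least 1 RPKM in all 4 libraries 5 rose and 1 fell, beside 4073 and 1719 of the 10411 genes at that level. Gcg (ENSMUSG00000000394.15 on the minus strand of chromosome 2, GRCm38 bases 62474530 to 62483650) measured 28018 and 19012 RPKM in immature cells, 532 and 723 RPKM in mature cells and 172629 and 166608 RPKM in double negative cells, and rose by 5.22 (SE 0.34, adjusted p = 1.71e-05). Relative to double negative cells, Gcg stood at 13.9%, the alpha cell factor gene Irx1 at 17.1%, and the transthyretin gene Ttr at 17.8%. Over the 13 genes the median was 24.9%, with 30.4% in immature library 1 and 19.7% in library 2, and 0 of the 13 were higher in library 2. Gria3, a glutamate receptor gene, was the exception, at 99.9%. Tspan7 fell by 0.50 and was lowest in immature cells.

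Of 6 delta cell genes tested, 4 reached 1 RPKM in immature cells alone. The somatostatin gene Sst was at 3214 and 3543 RPKM in immature cells, 211 and 327 RPKM in mature cells and 19746 and 21309 RPKM in double negative cells and its regulator Hhex at 10.2 and 10.1 RPKM in immature cells, 0.22 and 0.544 RPKM in mature cells and 29.9 and 32.4 RPKM in double negative cells. Sst in immature cells was 16.5% of the double negative level and Hhex 32.7%, and over the 6 genes the share ran from 16.5% to 274%, the last for Pdlim4, the gene above double negative cells. The PP cell hormone genes Ppy and Pyy rose by 5.54 and 5.67 and stood at 36.4% and 48.5% of double negative cells, while Tspan12, the other list member tested, was at 117%. Ppy measured 4485 and 5639 RPKM in immature cells, with 122 and 93.4 RPKM in mature cells, and Pyy 2806 and 2907 against 48.7 and 62.1 RPKM.

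Acinar genes rose in 16 of 17 tested cases, with a median of 6.49, and all 16 passed above double negative cells as well. Of all genes tested 47.2% rose and 27.3% were above both other populations. Without immature replicate 2, 5 of the 17 rose, and with no filter on low values also 5. Clps, the colipase gene, measured 617 and 1669.6 RPKM in immature cells, 6.06 and 5.49 RPKM in mature cells and 14.1 and 167 RPKM in double negative cells. It rose by 7.23 (SE 1.39, adjusted p = 0.00343). Ctrb1, chymotrypsinogen B, measured 3705 and 13424 RPKM against 85.2 and 54.7 RPKM, and Cpa1, carboxypeptidase A1, 493 and 1423 against 9.16 and 5.73 RPKM. The 12 largest rises among genes of at least 5 RPKM in mature cells were 11 genes of digestive secretion (Clps, Prss2, Pnlip, Ctrb1, Cpa1, Reg1, Cela2a, Sycn, Cela1, Cel, Pnliprp1), each between 6.34 and 7.23, and the PP cell gene Pyy. Without immature replicate 2 the adjusted p was 0.0531 for Clps and 0.0645 for Cpa1, and with no filter 0.0574 and 0.0652. Cel, Cela1, Cela2a, Ctrb1, Pnlip, Pnliprp1 and Zg16 also missed the threshold in both settings.

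The acinar amount differed between the immature libraries. The 19 genes summed to 11071 RPKM in library 1 and 34000 RPKM in library 2, where mature cells had 241 and 177 RPKM and double negative cells 348 and 2715 RPKM. Of the 17 genes tested, 16 were higher in library 2, with a median difference of 1.49. Bhlha15, a factor of secretory cells that beta cells also express, was the exception, and it fell from 24.8 and 24.2 to 12.9 and 10.9 RPKM. The acinar factors Ptf1a and Rbpjl stayed under 1 RPKM in every library. Trypsinogen and Reg genes have near-identical copies, so the split between their members is uncertain. Both double negative libraries were low but unequal, and replicate 2 was the higher of each pair in immature and double negative cells.

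**Figure D5:**
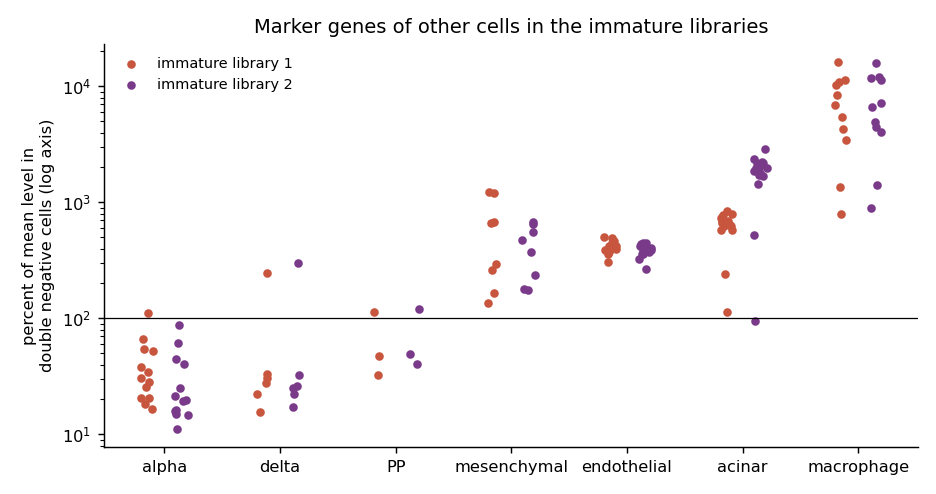
Level of marker genes in each immature library as a percent of their mean in double negative cells (y axis, log scale) for 7 cell types (x axis), for markers of at least 1 RPKM in double negative cells. Alpha, delta and PP genes mostly lie under 100%, and endothelial, acinar and macrophage genes above it, with acinar genes higher in library 2.

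Of 14 endothelial genes tested, 11 reached 1 RPKM in immature cells alone, so that their direction against mature cells was fixed by the filter, and all 14 were above double negative cells. Of all genes tested 27.3% were above both other populations, a share not matched for entry through the filter. Esm1 measured 339 and 286 RPKM in immature cells, 1.13 and 0.604 RPKM in mature cells and 70.5 and 76.1 RPKM in double negative cells. Cdh5, the endothelial cadherin, measured 125 and 125 RPKM in immature cells, 0.497 and 0.262 RPKM in mature cells and 31.1 and 30.7 RPKM in double negative cells, and Kdr, the VEGF receptor, 75.5 and 71.8 RPKM in immature cells, 0.243 and 0.177 RPKM in mature cells and 16.4 and 17.2 RPKM in double negative cells. Immature levels of the 14 genes were 286% to 470% of double negative levels, with a median of 400%, and the medians of libraries 1 and 2 were 402% and 395%. Thbs1, thrombospondin 1, which several cell types make, measured 286 and 273 against 1.22 and 0.675 RPKM.

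All 11 mesenchymal genes tested reached 1 RPKM in immature cells alone, so their direction was fixed by the filter. Among them were Dcn, decorin, at 60.7 and 32.7 RPKM and Col1a1 at 20 and 16.6 RPKM in immature cells, while mature cells had 0.0405 and 0.107 RPKM of Dcn and 0.0257 and 0.0738 RPKM of Col1a1. The immature level of Pdgfra was 3.67 and 3.85 RPKM. The rise of Tagln, a smooth muscle gene, did not pass after quantile normalization (adjusted p = 0.724).

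Of 16 macrophage genes tested, 12 reached 1 RPKM in immature cells alone, so that the filter fixed their direction. The 3 with at least 1 RPKM in all 4 libraries, Cd68, C1qa and Cd74, rose, as did 4073 of the 10411 genes at that level. All 16 were above double negative cells, where 27.3% of all genes tested were above both other populations, a share not matched for entry through the filter. Lyz2, lysozyme, measured 168 and 167 RPKM in immature cells, 0.266 and 0.206 RPKM in mature cells and 1.18 and 0.903 RPKM in double negative cells, a rise of 7.09 (SE 0.12, adjusted p = 1.43e-07). Cd74, the chaperone of class II antigens, measured 749 and 786 RPKM in immature cells, 2.54 and 2.33 RPKM in mature cells and 16.1 and 19.2 RPKM in double negative cells. The complement gene C1qb measured 131 and 139 RPKM in immature cells, 0.0775 and 0.24 RPKM in mature cells and 1.12 and 1.17 RPKM in double negative cells, and Adgre1, the F4/80 antigen, 17.8 and 15.5 RPKM in immature cells, 0.013 and 0.0115 RPKM in mature cells and 0.0838 and 0.149 RPKM in double negative cells. The 2 immature libraries were close here, since the list's sums given above differ by less than for acinar genes, and the double negative libraries summed to 56 and 60.3 RPKM. Cd68 was already at 42.2 and 42.3 RPKM and C1qa at 15.9 and 16.5 RPKM in mature cells, while Adgre1 and Itgam were near 0 there.

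By the naming rule for genes above both other populations, the 10 largest were Lyz2, Ctss, C1qb, Mpeg1, Apoe, Acp5, Tyrobp, Sfrp4, Cd74 and Pf4. Ctss, a cathepsin of antigen-presenting cells, measured 274 and 302 RPKM in immature cells, with 0.248 and 0.275 RPKM in mature cells, and Apoe, the lipid carrier apolipoprotein E, 350.2 and 407 against 1.11 and 1.07 RPKM. Acp5 had 81.9 and 92.6 RPKM and Sfrp4 52.1 and 109 RPKM in immature cells, and Sfrp4 was listed at 0 in both mature libraries. Tgfbi, a matrix protein gene among the 8 largest rises, measured 190.2 and 185 RPKM against 0.409 and 0.446 RPKM. In all, 3546 genes (27.3%) were above both other populations and 245 (1.89%) below both. The filter tilts these counts: 1979 genes tested reached 1 RPKM in both immature and in neither mature library, and 105 the reverse. Lyz2, Ctss, C1qb, Acp5, Sfrp4 and Pf4 are among the 1979, so their direction against mature cells was fixed. Mpeg1 and Tyrobp did not reach 1 RPKM in both mature libraries, while Apoe and Cd74 did. The split into above and below also depends on the scale: it became 2095 above and 1540 below after median-ratio rescaling, 1485 and 1855 after quantile normalization, and 1864 and 1024 with hormone genes left out of the sum. Without immature replicate 1 the counts were 2210 and 105. Leaving out immature library 2 gave 2482 above both and 152 below both.

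Other blood and nerve cells left smaller traces. Of 12 lymphocyte genes only Il7r, Ptprc and Coro1a were tested, and they reached 1 RPKM in immature cells alone. Ptprc and Coro1a are made by leukocytes in general. Cd3g, Cd8a and Nkg7 were listed at 0 in both immature libraries, and Cd3e in library 2. On the list of red cells and platelets 2 of 9 genes were tested, and both reached 1 RPKM in immature cells alone. These are Pf4, at 51 and 74.4 RPKM in immature cells, and Ppbp, at 5.01 and 8.3 RPKM, both listed for platelets. Ppbp was listed at 0 in the mature libraries. Itga2b, also listed for platelets, did not reach the filter, at 0.383 and 0.266 RPKM in immature cells. It measured 0.0618 and 0.103 RPKM in mature cells and 0.316 and 0.403 RPKM in double negative cells. Hbb-bs, a haemoglobin gene, was at 0 in immature library 1 and at 3.36 RPKM in library 2. Of 7 Schwann cell and neuron genes tested, 4 reached 1 RPKM in immature cells alone. The list holds Sox10, at 2.62 and 1.6 RPKM, and Prph, at 4.48 and 11.7 RPKM, and Tubb3, a neuronal tubulin that beta cells also make, fell by 1.41.

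Duct genes gave no uniform picture: of 12 tested, 8 rose, 2 fell and 2 missed the threshold (47.2% and 14.4% of all genes rose and fell), with a median of 0.63, and the calls that turned sign under another scaling included that of Anxa4. After median-ratio rescaling 5 rose and 3 fell. Krt19 rose by 2.38, from 7.16 and 7.74 to 33.6 and 55 RPKM, with the immature libraries apart from each other, and Tspan8 by 3.78, to 76.3 and 69.3 RPKM. The double negative level of Tspan8 was 57.8 and 75.6 RPKM. Krt18 and Epcam did not pass (adjusted p = 0.117 and 0.807), and Krt7 fell by 0.40. Cftr, the chloride channel of duct cells, stayed under 1 RPKM in every library. Spp1, osteopontin, fell by 1.45 and was lowest in immature cells, with 288 and 286 RPKM there, 748 and 821 RPKM in mature cells and 619.7 and 624 RPKM in double negative cells.

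Of the genes below both other populations, whose number depends on the scale as given above, the 10 named were Spp1, Slc38a4, Rgs4, Flywch2, Vgf, Tmem179, Vipr1, Pam, Lrg1 and Cpe. Rgs4, which ends signals of G proteins, measured 141 and 129.5 RPKM in immature cells, 286 and 285 RPKM in mature cells and 379 and 346 RPKM in double negative cells. Pam, which amidates peptide hormones in granules, measured 119.5 and 108 RPKM in immature cells, 311 and 302 RPKM in mature cells and 199.99 and 193 RPKM in double negative cells. Slc38a4, an amino acid transporter gene, measured 88.2 and 74.4 RPKM in immature cells, 174 and 169 RPKM in mature cells and 183 and 181 RPKM in double negative cells. All 3 had their highest immature value below the lowest value of the other populations. The call for Lrg1 did not pass without immature replicate 1 (adjusted p = 0.268) or with no filter (0.103), and that for Flywch2 after thinning to equal depth (0.123).

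Proliferation genes were mostly too low to test. Of 12, 6 were tested, 4 rose and 2 did not pass, where 47.2% of all genes rose. Of the 4 with at least 1 RPKM in all 4 libraries 2 rose, beside 4073 of the 10411 genes at that level. Rrm2 turned sign under another scaling. The replication licensing genes Mcm3 and Mcm6 rose by 2.22 and 1.47, Mcm3 to 7.68 and 9.43 RPKM and Mcm6 to 6.45 and 6.71 RPKM. Mcm3 did not reach 1 RPKM in both mature libraries. Pcna measured 22.1 and 18.5 RPKM in immature cells, with 17.4 and 15.7 RPKM in mature cells (adjusted p = 0.0823), and the mitotic genes Mki67 and Top2a stayed under 1 RPKM in every library.

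Immediate early genes, which answer stress and dissociation, rose in 12 of 17 cases and fell in 1, beside 47.2% and 14.4% of all genes, with 4 not passing and a median of 0.58, and Btg2 turned sign under another scaling. After median-ratio rescaling 7 rose and 3 fell. Macrophage, endothelial and acinar sums, given with those lists, were higher in the same libraries, and their part was not tested. Klf6 rose by 2.60, from 6.93 and 6.74 to 47.1 and 46.1 RPKM, Zfp36 by 1.89 and Jun by 1.52. Fos rose by 0.45 (adjusted p = 0.00533, or 0.895 after median-ratio rescaling and 0.0653 without immature replicate 1). Nr4a1, which stimulated beta cells induce, fell by 0.45. In double negative cells Jun measured 101 and 89.9 RPKM and Zfp36 102 and 95.5 RPKM.

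Some genes scarcely differed. The 6 smallest differences among genes of at least 50 RPKM in mature cells were those of Nckap1, Eif3b, St13, Fkbp4, Psma6 and Rtcb. Psma6, a proteasome subunit gene, for example, measured 103 and 90.2 RPKM in immature cells, with 98.9 and 93.9 RPKM in mature cells. Among 16 common reference genes 6 were higher, 3 lower and 7 did not pass, with a median of 0.05, and Tbp turned sign under another scaling. After median-ratio rescaling 3 were higher and 10 lower, and without immature replicate 1, 5 were higher and 1 lower. Actb rose by 1.63 and B2m by 1.88, while Rplp0, Hprt and Eef2 had adjusted p of 0.476, 0.389 and 0.662. Gapdh measured 12.6 and 15.1 RPKM, and its exons share bases with Iffo1.

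The widest gaps between the immature libraries, among genes with a mean of at least 20 RPKM there, were those of Igkc, Vip, Reg2, Reg3b, Clu, Nupr1, Ctrb1 and Zg16. Igkc, an antibody light chain gene, measured 113 RPKM in library 1 and 3.27 RPKM in library 2. Vip, a neuropeptide gene, went the other way, with 8.75 and 57.3 RPKM. Clu, clusterin, measured 185 and 721 RPKM in immature cells, with 43.9 and 44.3 RPKM in mature cells. Nupr1, a stress gene, measured 84.4 and 319 RPKM and lay on either side of the mature libraries, at 156 and 159 RPKM (adjusted p = 0.952). The 7 genes other than Igkc were higher in library 2, which also held more acinar and less glucagon RNA.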

How the data were processed

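Sorted cells went into Trizol, and libraries were built with the TruSeq RNA kit v2, per the labels' protocols. The authors deposited RPKM values in 1 table with a column per library, matched here by title. STAR 2.5, featureCounts, edgeR 3.14.0 and GRCm38.p4 are named per the submitters' processing notes. Which annotation was used, and how multi-mapping reads were counted, is not given in the sources used here. Since RPKM are not counts, depth was recovered from their steps with GENCODE M21 (GRCm38) exon lengths: 76.2% of genes above 0 gave whole reads in all 6 libraries within 0.02 reads. Genes with at least 1 RPKM in at least 2 of the 4 immature and mature libraries entered limma 3.58.1 (R 4.3.3) as log2(RPKM + 1): group means over 6 libraries, an intensity trend, 1 precision weight per population (0.323 immature, 2.54 mature, 1.22 double negative), 3 residual degrees of freedom and Benjamini-Hochberg adjustment over all 12981 genes at 0.05. Differences on this scale understate changes of low genes. The labels do not say whether the pools were independent, and p-values reflect only how these libraries vary. On simulated data at these depths the test made more false calls than its threshold states, nearly all of them under 10 RPKM. The comparison, the gene lists and the tests were chosen with earlier results of these data known. Named genes were Ins1 and Ucn3; the 12 largest falls and 12 largest rises with a mature mean of at least 5 RPKM; the 8 largest rises with an immature mean of at least 20; the 10 highest and 10 lowest in immature of 3 populations; the 6 smallest differences at 50 RPKM or more; the 8 widest gaps between immature libraries; and list members with the largest differences or a known role. Predicted genes, pseudogenes and small RNA genes were passed over, and some list members are not reported here by name. Annotated exons of 47 of 209 named genes share bases with another gene, which can move reads between them. Alternatives were 3 other scalings, pseudocounts of 0.25 and 3, a filter of 5 RPKM or none, thinning to the shallowest library, other spread models, a fit without double negative cells, a replicate block and leaving out each immature or mature library.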

Additional observations from a re-analysis of the deposited data

How the results depend on the processing

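Of 209 named genes, 185 passed; 142 of these kept their call in every alternative that gave them a value, which was all 16 for 134 and fewer for 8, and 43 lost it or turned in at least 1, among them 12 that turned sign under a scaling: after median-ratio rescaling Slc30a8 (-0.21), Rph3al (-0.21), Anxa4 (-0.14), Insr (-0.081), Btg2 (-0.039) and Dhcr7 (-0.0030), after quantile normalization Esrrg (-0.45), Cacnb2 (-0.43), Tbp (-0.42), Rrm2 (-0.29), Dhcr7 (-0.18), Aldh1a3 (-0.075), Insr (-0.055) and Gast (-0.034), and without hormone genes in the sum Rph3al (-0.030) and Slc30a8 (-0.024). Over all genes tested, 70.6% of the 7995 calls were kept after median-ratio rescaling and 31 were called the other way. After quantile normalization 57.4% were kept and 166 were called the other way. With hormone genes left out of the sum 74.7% were kept and 0 were called the other way. Genes higher numbered 3783 after median-ratio rescaling, 2751 after quantile normalization and 3806 with a filter of 5 RPKM, against 6131. Genes lower numbered 4667 and 4781 under the same scalings and, with equal sums without hormone genes, 2914, against 1864. Genes higher by at least 1 numbered 1218 after quantile normalization, 1387 with a pseudocount of 3 and 1361 with the 5 RPKM filter, and genes lower by at least 1 numbered 759, 861, 471 and, with a pseudocount of 3, 185, for the median-ratio, quantile, no-hormone and pseudocount settings. Genes highest in immature cells numbered 2095, 1485 and 1864 under the scalings and 2289 with the 5 RPKM filter, and genes lowest numbered 1540, 1855 and 1024 under the scalings, 112 with no filter and 143 after thinning. Highest and lowest together came to 2522 with the 5 RPKM filter. Leaving out 1 library gave 5763 to 7735 genes passing, 4496 to 6065 higher, 1267 to 1750 lower, 2441 to 2620 higher by at least 1, 261 to 329 lower by at least 1, 2315 to 3715 highest or lowest, 2210 to 3507 highest and 105 to 218 lowest. With the replicate number as a block, 7749 genes passed, 5968 higher and 1781 lower. Deviations of same-numbered libraries correlated at -0.01 for immature and mature, 0.12 for immature and double negative, and -0.13 for mature and double negative cells. The main fit did not pair libraries by number. Library titles share a tag by replicate number across populations, and these correlations cannot show whether same-numbered libraries came from the same pool. A fit to the 4 immature and mature libraries alone gives no highest or lowest count. Where a call was lost the cause was not tested, beyond fewer samples when a library is left out. The immature depth limits genes under 2 RPKM, which rest on a median of 16 and 22 reads.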

Other observations

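The genes below were picked after their values were seen and are reported as values. Phgdh, the first enzyme of serine synthesis, measured 2.52 and 4.2 RPKM in immature cells, with 14.9 and 16.2 RPKM in mature cells (difference -1.95, limma adjusted p = 7.71e-05). Psat1 and Psph, the next enzymes, fell by 1.30 and 1.45. The mitochondrial folate enzymes Shmt2, Mthfd2 and Aldh1l2 fell by 0.83, 0.81 and 1.64. Asns, asparagine synthetase, fell by 1.06, the stress factor Atf5 by 1.36 and the glutathione-degrading enzyme Chac1 by 1.39. The amino acid transporter Slc7a5 fell from 174 and 169 to 84.2 and 85.9 RPKM. Slc7a11, the cystine transporter, went the other way, at 9.48 and 8.83 RPKM in immature cells, with 2.17 and 2.05 RPKM in mature cells. Phgdh measured 2.94 and 3.38 RPKM in double negative cells.

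Fth1, the ferritin heavy chain gene, measured 2978 and 3149 RPKM in immature cells, 594 and 587 RPKM in mature cells and 584 and 565 RPKM in double negative cells. The light chain gene Ftl1 rose by 0.51, or 0.07 after median-ratio rescaling. The lysosomal protease gene Lgmn stood at 151 and 163 against 40.3 and 39.8 RPKM and Ctsd, another, at 294 and 304 against 152 and 152 RPKM. Fh1, fumarate hydratase, fell from 182 and 179 to 51 and 53.2 RPKM, and Odc1, ornithine decarboxylase, from 210.3 and 203 to 72.3 and 62.5 RPKM. Gad1, which makes GABA, measured 0.438 and 1.75 RPKM in immature cells, with 7.83 and 7.35 RPKM in mature cells. Macrophage genes such as Lyz2, at 168 and 167 RPKM in the same libraries, moved with these rises, and their part was not tested.

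The nuclear RNA Malat1 measured 266 and 243 RPKM in immature cells, 31.3 and 20 RPKM in mature cells and 26.1 and 40 RPKM in double negative cells. The mitochondrial ribosomal RNA mt-Rnr1 measured 234 and 227 RPKM in immature cells, 68.3 and 69.3 RPKM in mature cells and 97.4 and 105 RPKM in double negative cells. The ribosomal RNA entry Rn18s-rs5 measured 825 and 852 RPKM in immature cells and 397 and 375 RPKM in mature cells, with an adjusted p of 0.011 that missed the threshold with either immature library left out, after median-ratio rescaling, after quantile normalization and with no filter on low values. Lars2, the mitochondrial leucyl-tRNA synthetase gene, measured 297 and 103 RPKM in immature cells, 35.4 and 43.2 RPKM in mature cells and 64.8 and 46.2 RPKM in double negative cells.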
